A study of Mus musculus with 6 samples.

Results

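Microfold cells are epithelial cells that overlie lymphoid tissue in the gut and pass luminal particles to the immune cells beneath them. In the gut their formation is driven by RANK ligand, acting through the receptor RANK and NF-kB, and the ETS factor Spi-B is needed for their maturation. In the thymus, medullary epithelial cells that express genes of this cell type are counted among the mimetic cells, as are thymic tuft cells, which carry the genes of chemosensory epithelium.

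The values of 7 microfold cell genes were taken from a table of 55471 genes: Gp2, Pglyrp1, Tnfaip2, Sox8, Anxa5, Marcksl1 and Aif1. They were chosen by name, with earlier results for Gp2 and Pglyrp1 in these same libraries known. Their differences between the groups are therefore described only. Where calls of these genes are listed, nothing is read from them as a test. RNA was sequenced from cells sorted from mouse thymus on L1CAM, a surface adhesion molecule that marks thymic tuft cells. There were 3 samples of genotype Foxn1-Cre(-)/Ikzf1fl/fl, given as WT, and 3 of genotype Foxn1-Cre(+)/Ikzf1fl/fl, given as KO. Both groups therefore carried the floxed alleles of Ikzf1, the gene of the transcription factor Ikaros, and differed in the recombinase. Foxn1-Cre acts in thymic epithelium as a whole and is not limited to tuft cells. The sources used here give neither age nor sex, nor whether the samples came from separate animals, so the spread between libraries may be technical.

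The deposited values come in 6 columns, of which 3 carry the name Het and 3 the name Ko, each with a number. Ko was read as the samples given as KO, which leaves the other genotype for Het. Normalized counts of Ikzf1, the targeted gene, were 301, 187 and 273 in the Het libraries and 1572, 1463 and 1717 in the Ko libraries. Ikzf1 RNA was thus higher in the libraries labelled Ko (log2 fold change 2.66 ± 0.30 SE, n = 3 per group, limma adjusted p = 0.0105; 0.0621 without Het3), which goes against a loss of the whole transcript. Counts summed over the gene do not resolve a deleted exon, so this value does not check the deletion, and every direction given here is that of the libraries labelled Ko relative to those labelled Het. Recovered read totals ranged from 12429260 to 31435787 in Het and from 12238428 to 17140843 in Ko libraries. The 10 tuft cell genes examined, among them Pou2f3, Trpm5, Dclk1 and the highest, Gnat3, each had a mean of at least 100 normalized counts. Of these 10, 0 were called between the groups by limma (0.814% of all tested genes), edgeR (0.386%) or DESeq2 (2.1% higher and 4.24% lower). At an unadjusted limma p under 0.05 there was 1 (13.6% of all genes). These counts are near the shares of all genes, so nothing is read from them. Their log2 differences were positive for 9 and negative for 1, with a median of 0.24. Over all tested genes the median was -0.05, and 47.2% were positive. Across genes Het1 correlated more with the 3 Ko libraries (Pearson's r 0.801 to 0.815) than with Het2 and Het3 (0.790 and 0.787), so values without Het1 are given for each of the 7 genes.

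The promoters of Gp2 and Pglyrp1 are shown because these differed most between the groups of the 7 genes, and because Spi-B, NF-kB and Ikaros bind DNA by known short motifs. Each window runs from 250 bases before to 50 bases after the annotated start, 5′ to 3′ on the strand of the gene. Both come from RefSeq on GRCm38.p6, a build other than the GRCm39 of the deposited values. The Gp2 window is chr7:119459223-119459522 on the minus strand, and the Pglyrp1 window is chr7:18884440-18884739 on the plus strand. Capitals mark every match, on either strand, to GAGGAA (the core bound by Spi-B and its close relatives), TGGGAA (the core bound by Ikaros) or the NF-kB pattern (GGG and CC with any 5 bases between them, read on either strand).
Gp2: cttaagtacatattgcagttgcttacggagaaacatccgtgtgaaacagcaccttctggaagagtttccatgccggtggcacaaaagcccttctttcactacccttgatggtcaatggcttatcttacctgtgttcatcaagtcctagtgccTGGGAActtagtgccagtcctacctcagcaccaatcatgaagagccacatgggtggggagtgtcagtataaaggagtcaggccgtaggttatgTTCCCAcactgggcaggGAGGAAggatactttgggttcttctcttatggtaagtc
Pglyrp1: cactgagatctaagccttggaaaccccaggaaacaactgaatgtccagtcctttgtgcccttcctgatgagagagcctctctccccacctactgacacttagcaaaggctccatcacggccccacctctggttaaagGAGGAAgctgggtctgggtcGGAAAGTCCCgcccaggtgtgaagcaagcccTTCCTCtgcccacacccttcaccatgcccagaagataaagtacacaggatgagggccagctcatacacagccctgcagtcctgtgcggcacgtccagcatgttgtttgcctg
The Gp2 window held 2 matches to TGGGAA, 1 of them read on the opposite strand next to the start, and 1 match to GAGGAA after the start. The Pglyrp1 window held 2 matches to GAGGAA with 1 match to the NF-kB pattern between them, and 0 to TGGGAA. In neither window did matches share bases. These letters are common: among 32851 promoter windows of the same length, 28.3% held GAGGAA, 25.6% held TGGGAA and 50.8% held the NF-kB pattern. Of the 7 genes, all matched to the RefSeq table, 4 held GAGGAA, 2 held TGGGAA and 5 held the NF-kB pattern. A match is a run of letters and shows no binding.

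Gp2 and Pglyrp1, the genes for surface and secreted proteins that bind bacteria, were lower in every Ko library than in any Het library. Gp2 (ENSMUSG00000030954) encodes a glycoprotein anchored in the apical membrane of microfold cells, where it binds the FimH adhesin of bacterial pili; it is also a product of pancreatic acinar cells. Its normalized counts were 18627 in Het1, 5519 in Het2 and 16339 in Het3, against 1355 in Ko1, 351 in Ko2 and 696 in Ko3. The highest Ko value lay below the lowest Het value, and Het2 was well below the other 2 Het libraries. The mean was 13495 ± 7002 (SD, n = 3) in Het and 801 ± 510 (SD, n = 3) in Ko libraries, a 16.9-fold lower level in Ko. On the log2(normalized count + 1) scale the difference was -4.10 ± 0.52 (SE), and it ranged from -4.65 without Het2 to -3.61 without Ko2, with -3.78 without Het1. The counts rested on 52405 reads in the Het and 2142 in the Ko libraries, so Gp2 RNA was well detected in both groups.

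Pglyrp1 (ENSMUSG00000030413) encodes a secreted protein that binds bacterial peptidoglycan and is also stored in neutrophil granules. Its normalized counts were 5675, 8692 and 11240 in the Het libraries and 1897, 2265 and 958 in the Ko libraries. The groups did not overlap, and the order of the libraries differed from that of Gp2: Het1 was highest for Gp2 and lowest of the Het libraries for Pglyrp1, and Ko2 was lowest for Gp2 and highest of the Ko libraries for Pglyrp1. Means were 8536 ± 2786 (SD, n = 3) in Het and 1707 ± 674 (SD, n = 3) in Ko, a 5.0-fold lower level in Ko, from 30180 and 4699 reads. The log2 difference was -2.36 ± 0.34 (SE), from -2.62 without Het1 to -1.99 without Ko3. Per kilobase of exon, the scale on which genes can be compared, Gp2 stood at 6754 and Pglyrp1 at 4647 normalized counts in Het libraries. In Ko libraries the order of the means was the reverse, 401 for Gp2 and 929 for Pglyrp1. On that scale Pglyrp1 exceeded Gp2 in Het2 and in all 3 Ko libraries, and Gp2 exceeded Pglyrp1 in Het1 and Het3.

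**Figure D1:**
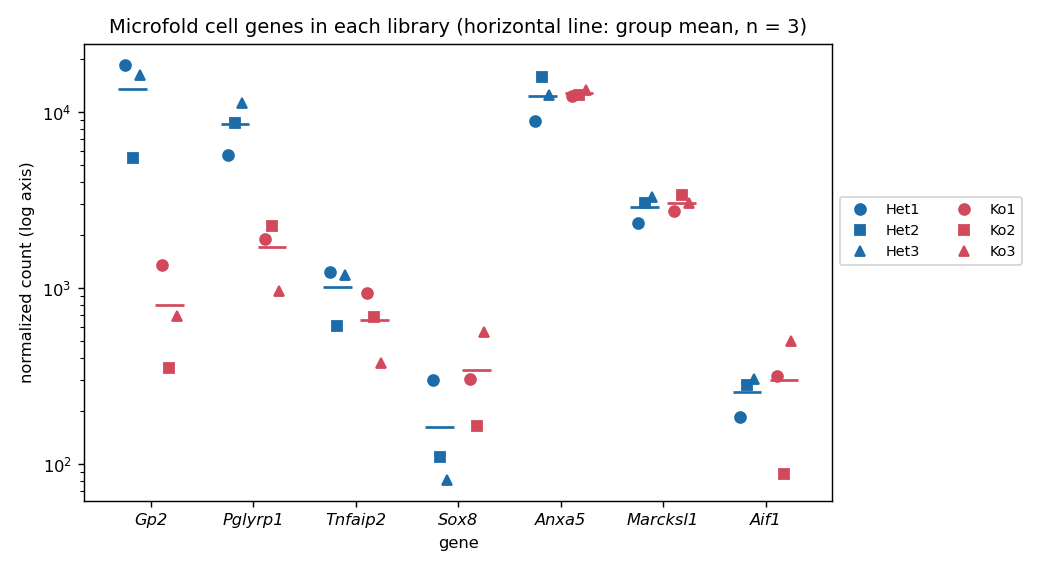
Normalized count (log axis) of each of the 7 genes in the 3 Het and 3 Ko libraries, with 1 point per library and horizontal lines at the group means. Gp2 and Pglyrp1 are the only genes of the 7 for which the groups do not overlap.

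The plot of normalized counts by library shows the remaining 5 genes with overlapping groups. Tnfaip2 encodes a protein that drives membrane protrusions and is used as a microfold cell marker. It was at 1232, 606 and 1193 in Het and 932, 681 and 372 in Ko libraries, and Het2 lay below 2 of the Ko libraries. The means were 1010.3 ± 351 and 662 ± 280 (SD, n = 3 each), with a log2 difference of -0.64 ± 0.41 (SE). It ranged from -0.97 without Het2 to -0.27 without Ko3 and was -0.46 without Het1.

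Sox8 encodes the SOX transcription factor that in mouse gut is needed for microfold cells to mature and express Gp2. It was at 298, 109 and 80.8 in Het and 305, 164 and 560.1 in Ko libraries. Het1 was close to Ko1, and the means, 163 ± 118 and 343 ± 201 (SD, n = 3 each), were higher in Ko, the opposite order to Gp2. The log2 difference was 1.13 ± 0.65 (SE), from 0.69 without Ko3 and 0.75 without Het3 to 1.68 without Het1. Exons of Sox8 overlap those of the antisense gene 2810468N07Rik in GENCODE M21, and the sources used here do not say whether counting used strand, so reads of both genes cannot be told apart and the Sox8 values are uncertain. Counts assigned to 2810468N07Rik were 752, 501 and 587 in Het and 2278, 4008 and 2965 in Ko libraries, and it rose (log2 2.31 ± 0.27 SE, limma adjusted p = 0.0111), a call lost without Het2 and without Het3. Sox8 was a low gene beside Gp2, at 52.2 normalized counts per kilobase in Het and 109.9 in Ko.

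Anxa5 and Marcksl1 were the steadiest of the 7. Anxa5 encodes annexin A5, which binds phosphatidylserine in the presence of calcium. It was at 8865, 15766 and 12612 in Het and 12419, 12595 and 13450 in Ko libraries. The Ko libraries lay within the Het range, and the log2 difference was 0.09 ± 0.19 (SE). Marcksl1 encodes a membrane-bound regulator of actin and was at 2341, 3045 and 3307 in Het and 2750, 3382 and 3057 in Ko libraries. Its log2 difference was also 0.09 ± 0.19 (SE), and both signs turned without Het1, to -0.14 for Anxa5 and -0.06 for Marcksl1. Per kilobase Anxa5 was the highest of the 7 genes in both groups, at 6986 in Het, next to Gp2 at 6754, and at 7215 in Ko. Those Het means differed by less than the spread of either gene over its libraries.

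Aif1 encodes an actin-binding protein of macrophages that has also been described in microfold cells. It was at 183, 279 and 304 in Het and 316, 87.0 and 501 in Ko libraries. The Ko libraries enclosed the whole Het range, the highest being 5.76 times the lowest. The mean was higher in Ko (256 ± 63.8 and 301 ± 208, SD, n = 3 each), while the log2 difference, which averages logs, was -0.06 ± 0.64 (SE). Its sign depended on single libraries, from -0.59 without Ko3 to 0.67 without Ko2, and was -0.28 without Het1. Among macrophage markers the library order differed from gene to gene: C1qb was highest in Ko3, as Aif1 was, C1qc in Ko1, Csf1r, Adgre1, Cd68 and Mrc1 in Het2, and Lyz2 in Het1. What part macrophage RNA had in the Aif1 values was not tested.

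By limma at an adjusted p under 0.05, 0.525% of the 19416 genes tested were lower and 0.288% higher in Ko libraries, and 2 of the 7 genes, Gp2 and Pglyrp1, were among the lower. The same 2 were called lower by edgeR (0.263% of all genes), by DESeq2 (4.24%) and in the authors' deposited table (5.16%). In the authors' deposited table their log2 fold changes were -4.07 (SE 0.60) for Gp2 and -2.32 (SE 0.42) for Pglyrp1. Groups did not overlap, with Ko lower, for 9.86% of all genes. Since these genes were chosen from this contrast, nothing is read from those counts. Without Het2 limma called Gp2 alone of the 7, and without Het3 it called 0 genes in the whole table (2080 at an unadjusted p under 0.05). In RNA pooled over sorted cells, fewer cells of a type and less RNA per cell cannot be told apart.

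Outside the 7, 26 further genes of microfold cells and of their induction were examined, of which 25 passed the filter on low values and C5ar1 did not. By limma 0 of 25 were called, against 0.814% of all tested genes in either direction; edgeR called 0 (0.386%) and DESeq2 11, 10 of them lower (4.24% of all genes) and 1 higher (2.1%). At an unadjusted p under 0.05, 12 were lower (7.99% of all genes) and 2 higher (5.62%), and for 12 lower and 2 higher the groups did not overlap (9.86% and 8.57%). The median log2 difference was -0.78 over the 25 genes and -0.05 over all tested genes, with 21 of the 25 negative. Among 14 further markers the median was -1.20, and among 11 regulators -0.71. These values are from the contrast used to choose Gp2 and Pglyrp1, and in the same cells.

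Of the further markers with the highest means, Clu, a secreted chaperone, was at 15143 ± 427 in the Het group and 11273 ± 2334 in Ko libraries (SD, n = 3; limma adjusted p = 0.243). Fabp5, a fatty acid-binding protein, was at 10778 ± 4877 and 3594 ± 419 (adjusted p = 0.0691), and without Het1 it passed the threshold. Serpinb1a, an inhibitor of neutrophil proteases, was at 6960 ± 2743 and 4592 ± 1624 (adjusted p = 0.454). None of the 3 passed limma's threshold in all 6 libraries, although the groups did not overlap for Clu and Fabp5. Prnp, the gene for the prion protein, was at 7055 ± 1357 and 4439 ± 649 (adjusted p = 0.146), and Rac2, a small GTPase of blood cells, at 5283 ± 949 and 3788 ± 527 (adjusted p = 0.303). Ctsh, a lysosomal protease chosen after its values were seen, was at 2169, 4635 and 4215 in Het and 1760, 899 and 537 in Ko libraries (adjusted p = 0.0826).

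The chemokine genes Ccl6 and Ccl9, also chosen after their values were seen, had the lowest log2 differences of the further markers. Ccl6 was at 547, 660 and 1183 in Het and 64.8, 40.4 and 1.43 in Ko libraries, and Ccl9 at 318, 923 and 1753 in Het and 3.09, 79.8 and 67.3 in Ko libraries. Neither overlapped between the groups, and neither passed limma's threshold (adjusted p = 0.0646 and 0.0868); over the alternatives their adjusted p ranged from 2.20e-07 to 0.275 and from 2.69e-06 to 0.313. Ccl20, the chemokine of the epithelium over gut lymphoid follicles and likewise chosen after its values were seen, was at 450, 1678 and 4571 in Het and 452, 174 and 1250 in Ko libraries, with overlap. Not all further markers were lower in Ko: 2 had a positive log2 difference and 12 a negative one. Scg5 was at 1002, 1766 and 1085 in Het and 2175, 3566 and 2269 in Ko libraries, with no overlap. It did not pass limma's threshold (adjusted p = 0.131) and was the 1 further gene that DESeq2 called higher.

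Spib, which encodes Spi-B, went the other way from Gp2. It was at 5521, 3624 and 4733 in Het and 6357, 5557 and 6878 in Ko libraries, where every value was above every Het value, without passing the threshold (log2 0.45 ± 0.18 SE, limma adjusted p = 0.319). The remaining regulators were chosen for their roles after values were seen. Tnfrsf11a, the gene for RANK, was at 750 ± 127 in the Het group and 685 ± 271 in the Ko group (SD, n = 3; adjusted p = 0.862). Tnfsf11, the gene for RANK ligand, was at 2.80, 139.9 and 1.44 in Het libraries and listed at 0 in all 3 Ko libraries, so its Het level rested on Het2. Tnfrsf11b, the gene for the soluble decoy receptor of RANK ligand, was at 892, 343 and 199 in Het and 84.4, 18.6 and 67.3 in Ko libraries, with no overlap and an adjusted p of 0.117. The NF-kB subunit genes Nfkb2 (1433 ± 142 and 750 ± 209, adjusted p = 0.146) and Relb (851 ± 62.9 and 498 ± 89.2, adjusted p = 0.257) did not overlap between the groups either, and did not pass limma's threshold; DESeq2 called Nfkb1 and Nfkb2. Rela, a further subunit gene, overlapped at 1072 ± 303 and 1122 ± 307 (adjusted p = 0.952), and so did Traf6, an adaptor gene of RANK signalling, at 778 ± 433 and 518 ± 124 (adjusted p = 0.796).

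**Figure D2:**
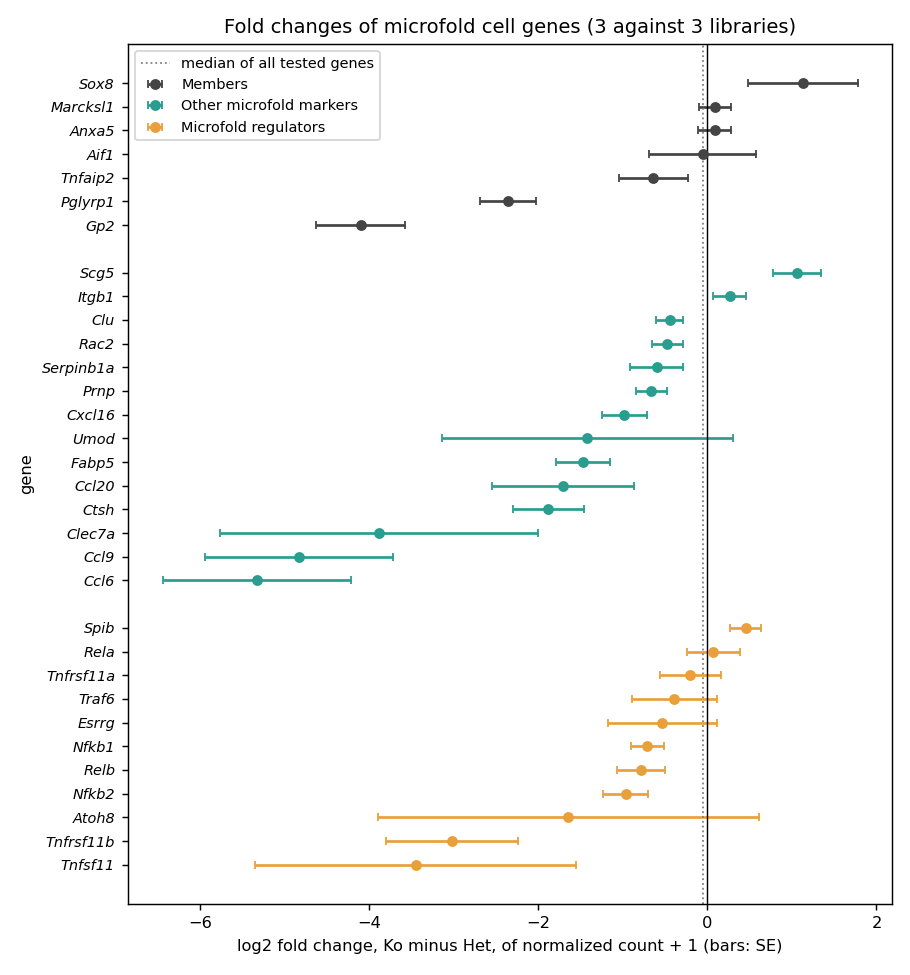
Log2 fold change of normalized count + 1, Ko minus Het, of the 7 genes, 14 further markers and 11 regulators, with SE bars from 3 against 3 libraries. Gp2 at -4.10 and Pglyrp1 at -2.36 lie left of the other 5 of the 7 genes; the dotted line is the median of all tested genes, -0.05.

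The plot of fold changes places most further markers and regulators left of the median of all genes, with wide error bars for the lowest genes. Among relatives of the 7 genes by family, 27 of 30 passed the filter, 1 was called lower by limma (0.525% of all genes) and 0 higher. It was Anxa10, an annexin of stomach epithelium, at 99.0, 838 and 297 in Het and 1.03, 4.14 and 2.86 in Ko libraries. Anxa10 fell (limma adjusted p = 0.0400), a call that was lost whenever any 1 of the 6 libraries was left out, and its Ko values rested on 7 reads in all. The most abundant relatives, Anxa1 (75846 ± 24231 and 43591 ± 5867, adjusted p = 0.124), Anxa4 (22214 ± 3392 and 18309 ± 2276, adjusted p = 0.446) and Anxa2 (10814 ± 934 and 11085 ± 635, adjusted p = 0.932), did not pass. The other peptidoglycan recognition genes, Pglyrp2, Pglyrp3 and Pglyrp4, differed strongly between replicates and none was called. Sox9, of the same SOX group as Sox8, was at 6469 ± 1614 and 6466 ± 485 (adjusted p = 0.974).

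Gene neighbourhood was compared as well. Umod, next to Gp2 in the annotation and of the same protein family, was at 85.6, 8.52 and 49.1 in Het and 2.06, 182 and 2.86 in Ko libraries, with the highest value in Ko2, where Gp2 was lowest. Mill2 and Ccdc61, next to Pglyrp1, overlapped between the groups. None of these 3 neighbours passed the test.

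Genes were ranked by likeness to Gp2 and to Pglyrp1, as the root mean square difference of centred log2 profiles over the 6 libraries, among 12272 genes with a mean of at least 50. Closest to Gp2 were Kcnk3, a potassium channel gene (0.419 log2 units), Rptn, which encodes the epidermal protein repetin (0.469), P2rx7, an ATP-gated channel gene (0.608), and Cdh8, a cadherin gene (0.700). Rptn was at 5613, 3291 and 6399 in Het and 392, 163 and 155 in Ko libraries, while Kcnk3 did not exceed 147 in any library. In Ko libraries Kcnk3 was at 4.12, 1.04 and 5.73 and Cdh8 at 5.14, 2.07 and 7.16. There 3 reads equal 3.09 to 4.30, so that part of both profiles rested on few reads. Closest to Pglyrp1 were Gsta2, a glutathione transferase gene with a near-identical relative and so uncertain counts (0.212), Garnl3 (0.220), the mucin gene Muc13 (0.259) and Utf1, a gene of pluripotent cells (0.264). Utf1 was at 813, 1000 and 1385 in Het and 206, 292 and 75.9 in Ko libraries. The 2 lists shared no gene. Pglyrp1 ranked 160 among the profiles closest to Gp2, and Gp2 ranked 5058 among those closest to Pglyrp1, at the same difference of 1.33. Profiles were not scaled, so the size of the fold change enters the ranks, and they do not compare shape alone. Anxa5, at a log2 difference of 0.09, ranked 4599 to Pglyrp1, before Gp2. Nothing is therefore read from the lists sharing no gene. Of the further microfold genes, Tnfrsf11b was nearest to Gp2 (rank 26) and Ctsh nearest to Pglyrp1 (rank 23).

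**Figure D3:**
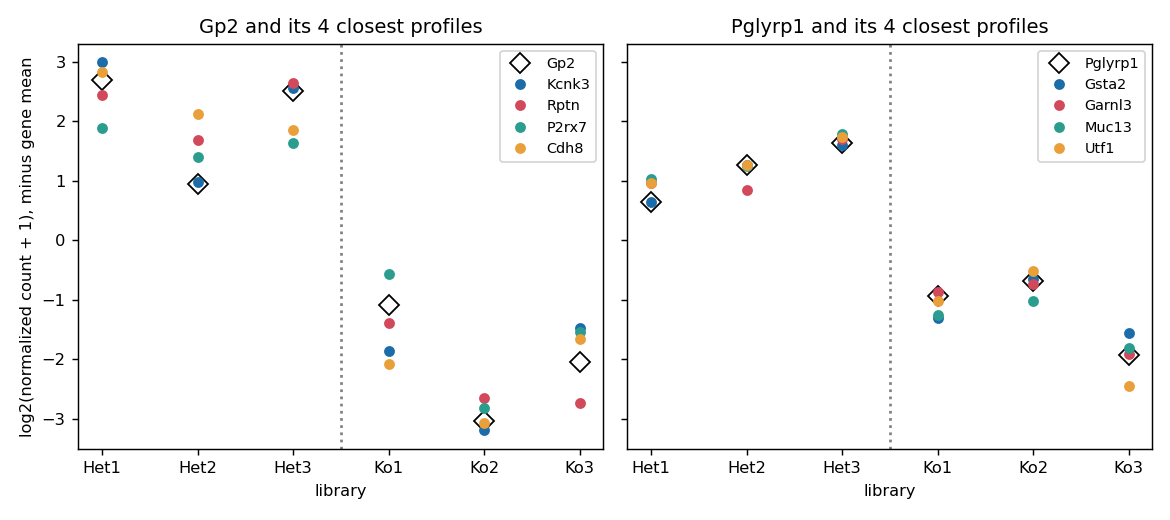
Centred log2(normalized count + 1) of Gp2 and Pglyrp1 (open diamonds) and of the 4 genes with the closest profiles (coloured points) in each library. Gp2 and its closest genes are lowest in Ko2 or Ko3, and Pglyrp1 and its closest genes are lowest in Ko3.

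Levels of other cell types were set beside these results because Gp2, Pglyrp1 and Aif1 are not specific to microfold cells. For neutrophils, the summed normalized count of 10 markers was 8060 to 23826 in Het and 593 to 8077 in Ko libraries. All 7 that passed the filter had lower log2 values in Ko (median -3.57, against -0.05 over all genes), 4 of them at an unadjusted limma p under 0.05 (7.99% of all genes). Ltf, the lactoferrin gene, had the highest mean, at 10516 ± 8606 in Het and 3154 ± 4244 in Ko libraries. In this list S100a9 fell, from 428, 741 and 841 to 2.06, 2.07 and 30.1 (limma adjusted p = 0.0272; not called by edgeR or without Het1, Het2, Het3 or Ko2). The other names here and among the acinar and macrophage markers were chosen after their values were seen. S100a8 was at 541, 4890 and 2209 in Het and 7.20, 265 and 1.43 in Ko libraries, and the surface marker gene Ly6g at 36.9, 846 and 216 in Het and 0, 3.11 and 0 in Ko libraries, with no overlap. The granule genes Mpo, Elane and Ctsg, of granulocyte precursors, stayed between 0 and 6.17 in every library. The neutrophil markers moved in the same direction as Pglyrp1, and their part in its values was not tested. For pancreatic acinar cells, 5 of 10 markers passed the filter. Rbpjl rose, from 136 ± 49.4 to 718 ± 140 (SD, n = 3; adjusted p = 0.0408, lost by edgeR, with no filter on low values and whenever 1 library was left out), and Ptf1a, Cpa1, Cpb1 and Cel stayed between 0 and 11.4. Prss2 was at 16.2, 504 and 1.44 in Het libraries and listed at 0 in all 3 Ko libraries, and Ctrb1 at 66.6, 141 and 39.0 in Het and 3.09, 0 and 246 in Ko libraries; neither was called by limma. The summed acinar level was 176 to 897 in Het and 609 to 1050 in Ko libraries, so the groups overlapped, and the part of acinar RNA in the Gp2 values was not tested.

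For macrophages the summed level of 11 markers was 5208 to 54088 in Het and 1226 to 3263 in Ko libraries. Lyz2 had the highest mean of this list, at 53300 in Het1 and between 497 and 8729 in the other libraries. Of the 9 tested, 0 were called by limma (0.525% of all genes lower) or edgeR (0.263%). DESeq2 called 2 (4.24%), and 2 had an unadjusted limma p under 0.05 (7.99%), all lower. Fcgr1 was between 0 and 2.86. Over the 6 libraries, markers of dendritic cells (led by Zbtb46) summed to 237 to 407 and of B cells (led by Pax5) to 10.4 to 187. Thymocyte markers summed to 334, 102 and 407 in Het and 520, 592 and 1173 in Ko libraries, higher in Ko with no overlap. Themis, the highest of them, was at 48.9 ± 36.5 and 573.8 ± 291 (SD, n = 3; limma adjusted p = 0.0735, called by DESeq2). Themis carried the separation of the thymocyte sums, at 434, 379 and 908 in the Ko libraries. The other thymocyte markers together overlapped between the groups. No marker of these cell types was at 0 in all 6 libraries. The 8 genes of secretory mimetic cells summed to 121372 to 183499 in Het and 3711 to 29279 in Ko libraries, and Reg3g, Fcgbp and Muc13 fell (limma adjusted p = 0.0341, 0.0408 and 0.0476; each was lost by edgeR and without at least 4 of the single libraries). The 8 genes of Aire-stage medullary cells summed to 18312 to 56905 in Het and 11903 to 16027 in Ko libraries. Ubd, the highest of them, was at 8249, 40719 and 35545 in Het and 4090, 4998 and 7394 in Ko libraries (limma adjusted p = 0.101). It thus made up much of the sum in Het2 and Het3. Ctsz fell (limma adjusted p = 0.0122, lost without Het2 or Het3). The 7 microfold genes summed to 34016 to 45076 in Het and 19524 to 19974 in Ko libraries, a difference carried by Gp2 and Pglyrp1. The other 5 summed to 12920, 19805 and 17498 in Het and 16722, 16909 and 17941 in Ko libraries, with overlap. The macrophage, secretory, Aire-stage and further microfold sums were, like Gp2 and Pglyrp1, lower in every Ko than in every Het library. For 2 of these lists that rested on a single gene. Without Lyz2 the macrophage sums overlapped between the groups, and without Ubd the Aire-stage sums did. Of the 9 macrophage markers tested, 8 had a negative log2 difference (median -0.87). The neutrophil sums overlapped (8060 in Het1, 8077 in Ko1), although all 7 tested markers were lower. Single genes made up most of some sums: Ltf 8049 of 8077 in Ko1, Lyz2 53300 of 54088 in Het1 and Reg3g 113982 of 121372 in Het1. The part of these lists in the Gp2 and Pglyrp1 values was not tested.

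**Figure D4:**
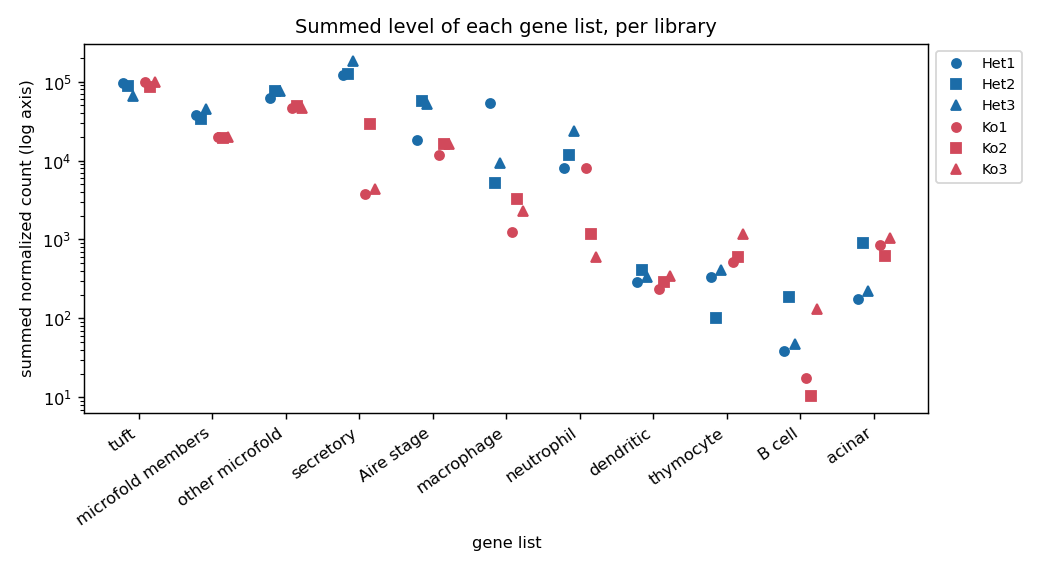
Summed normalized count (log axis) of each gene list in each library, with Het in blue and Ko in red. The sums of the secretory, Aire-stage, macrophage and other microfold lists were lower in each Ko than in each Het library. So was that of the 7 microfold genes, which Gp2 and Pglyrp1 carry. Lyz2 carried the macrophage separation and Ubd the Aire-stage one. The thymocyte sum was higher in each Ko library, a separation that Themis carried. The tuft cell sum overlapped between the groups.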

How the data were processed

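RNA of 6 samples was measured, 3 per genotype. Per the labels' protocols, sorted cells went into SMART-seq lysis buffer. The submitters' processing notes name STAR 2.7.9a, GRCm39 and DESeq2, the last with no version; the sources used here do not give the counter, strand setting or filters. The deposited expression values are size-factor normalized counts, a signal that keeps depth. The authors' deposited table of the comparison has log2 fold changes with a Wald score and p-values, per the file headers.

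Dividing by the value of 1 read gave whole numbers, within 0.01, for all values above 0. In the 6 libraries 3 reads equal 1.68 to 4.33 normalized counts. For the test, limma 3.58.1 was run on log2(value + 1) where a gene's mean reached 10 (R 4.3.3, trend, two-sided, Benjamini-Hochberg threshold 0.05), over all 19416 genes; an exact test of 3 against 3 cannot go below 0.10. The test was checked on simulated data. Log2 values understate changes of low genes. Alternatives on recovered reads used edgeR 4.0.16 (quasi-likelihood) and DESeq2 1.42.0. Exon lengths and overlaps came from GENCODE M21, on an earlier build. Replicate pairs differed by more than sampling noise, so none was a copy.

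The members and lists were chosen with earlier results of these data known. Named by rule were the 7 genes, other microfold genes and relatives that were called or had the highest means (6 and 3), the 4 closest profiles each, and the highest marker of each other cell type; names beyond this rule were chosen after their values were seen.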

Additional observations from a re-analysis of the deposited data

How the results depend on the processing

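Over 16 alternatives, each of the 7 genes moved by less than its replicate SD. For many of these that outcome was fixed in advance. Leaving out 1 of 3 libraries cannot move a difference by that SD, and the filter and replicate block settings leave it unchanged. Gp2 and Pglyrp1 stayed lower in Ko libraries in all 16; Aif1 kept its sign in 11 of 16. As the groups did not overlap for Gp2 and Pglyrp1, their sign could not turn when 1 library was left out. Genes called over the whole table numbered 158, against 75 with edgeR and 1118 with DESeq2, and 0 (without Het3) to 116 (without Ko1) with 1 library left out. At an unadjusted p under 0.05 there were 2080 genes without Het3. Of the further microfold genes 0 were called, against 1 with a pseudocount of 5 (Ccl6), 2 with a pseudocount of 20 (Ccl6 and Ccl9), 11 with DESeq2, and 0 to 1 with 1 library left out. Among relatives of the 7 genes 1 was called by limma (0.814% of all genes), 1 by edgeR (0.386%) and 4 by DESeq2. Of those 4, 3 were lower (4.24% of all genes) and 1 higher (2.1%). The causes were not tested. Sample numbers in the labels differ between the groups, and the numbers in the column names could not be tied to them. A replicate block by column number, chosen after the data were seen, gave 87 genes called over the whole table and 2 further microfold genes (Ccl9 and Fabp5). Deviations from the group means of the same-numbered columns correlated at 0.0250, 0.0214 and -0.0153 over 19416 genes, so the numbers were not taken as pairs. Depth limits Anxa10 and Tnfsf11, which had 7 and 0 reads in the Ko libraries, and the call counts rest on 3 libraries per group.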
